A study of Mus musculus with 11 samples.

Results

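Brain-derived neurotrophic factor (BDNF) and its receptor system were examined in the anterior cingulate cortex (ACC) of mice by bulk RNA-seq. The genes described are the 7 of 14974 genes in the expression table named Bdnf, Ntrk2, Ntrk3, Sort1, Sorcs1, Sorcs2 and Sorcs3, chosen by symbol as the BDNF gene, the Trk receptor genes of the cortex and the sortilin family of sorting receptors. All 7 were listed and all 7 were tested. The animals were adult wild-type C57BL/6 mice (C57BL/6J in the methods of the study) of both sexes. The trained group (6 libraries: 3 female, 3 male) had learned to press a lever for food under a schedule that asked for more presses per reward over successive days. The untrained group (5 libraries: 3 female, 2 male) was food-restricted in the same way, spent equal time in the same chambers and received the food without pressing, so that food restriction, chamber and reward were common to both groups. The ACC was dissected within 1 h of the last session. Tissue came from all cell types of the region, so lower RNA per cell and fewer cells of a type cannot be told apart in these values.

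BDNF is a secreted growth factor made mainly by excitatory neurons of the cortex. It is made as a precursor, proBDNF, which proteases cut to the mature form. Mature BDNF binds the tyrosine kinase TrkB, encoded by Ntrk2, and TrkB signals through the RAS-ERK, phosphoinositide 3-kinase and phospholipase C gamma routes to support dendrites, spines and synaptic strengthening. TrkC, encoded by Ntrk3, is the receptor of the related factor neurotrophin-3. Sortilin (Sort1) and its relatives SorCS1, SorCS2 and SorCS3 are membrane proteins that sort cargo between Golgi, endosomes and the cell surface. Sortilin and SorCS2 bind proneurotrophins, and sortilin also directs proBDNF into the regulated secretory route.

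Of the 7 genes, Ntrk2 differed most clearly between the groups, with a level 10.3% lower in trained mice, and no gene of the 7 reached a difference of 1.5-fold. The mean of each of the 7 was lower in trained than in untrained mice, by 0.02 to 0.16 on the log2 scale. For 6 of the 7 the 95% interval of that difference included 0. Among all 14936 genes tested, 7601 had a lower mean in trained mice and the median difference was -0.0029 on the log2 scale. No gene in the table, of this group or any other, passed an adjusted p of 0.05 in limma, and the lowest adjusted p was 0.334.

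The sequence of the Bdnf promoters is shown first because the gene is transcribed from several alternative starts, some of which are known to answer to neuronal activity. Of the 7 genes, 4 matched an entry in the RefSeq promoter table (GRCm38.p6, the assembly of mm10), with 7 entries for Bdnf and 1 each for Ntrk2, Sorcs1 and Sorcs3. The 250 bases before each start were searched on both strands for the cyclic AMP response element (CRE) TGACGTCA, its variant TCACGTCA, the AP-1 pattern TGANTCA and the E-box CACGTG. The AP-1 pattern was a loose one that takes any base in the middle, and a match to it is labelled AP-1 site here. The variant was found in 1 of the 10 windows, before the Bdnf start at chr2:109692436, and it begins 38 bases before that start. In the table as a whole 0.35% of 32851 promoter windows hold it. The loose AP-1 pattern was found in 1 window, as TGAATCA before the Bdnf start at chr2:109677032, against 6.75% of all windows by the same pattern. The full CRE and the E-box were in none of the 10, against 1.55% and 6.02% of all windows. The Ntrk2 window held none of the 4. The windows below are 5′ to 3′ on the plus strand, with the motif in capitals, and a match describes letters only.
Bdnf, chr2:109692186-109692435, CRE variant: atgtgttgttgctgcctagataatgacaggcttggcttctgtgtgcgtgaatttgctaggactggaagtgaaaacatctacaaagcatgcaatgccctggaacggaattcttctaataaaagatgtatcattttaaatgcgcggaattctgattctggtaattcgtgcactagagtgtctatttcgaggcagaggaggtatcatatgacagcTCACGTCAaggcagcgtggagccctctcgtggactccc
Bdnf, chr2:109676782-109677031, AP-1 site: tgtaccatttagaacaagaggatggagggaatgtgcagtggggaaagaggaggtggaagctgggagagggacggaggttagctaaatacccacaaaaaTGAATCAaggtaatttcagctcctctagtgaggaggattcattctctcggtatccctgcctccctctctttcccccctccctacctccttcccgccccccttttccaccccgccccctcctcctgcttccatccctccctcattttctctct
Ntrk2, chr13:58806319-58806568, no motif: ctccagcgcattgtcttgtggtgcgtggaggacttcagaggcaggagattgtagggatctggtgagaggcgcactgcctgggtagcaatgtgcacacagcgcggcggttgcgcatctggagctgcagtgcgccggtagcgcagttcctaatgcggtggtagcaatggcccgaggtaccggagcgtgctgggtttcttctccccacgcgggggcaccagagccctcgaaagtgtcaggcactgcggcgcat

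Expression was given as FPKM, fragments per kilobase of transcript scaled to the mapped fragments of the library. Levels of different genes can be set side by side only as far as the gene lengths used are right, and these are not stated. In GENCODE M21 the exons cover 30170 bases for Ntrk3 and 19292 for Ntrk2, against 6217 (Bdnf) to 8802 (Sorcs2) for the rest. The order below could therefore change with the lengths chosen. Sort1 was the most abundant of the 7 genes, at a mean of 108.4 FPKM over the 11 libraries, above 96.9% of all genes tested. Ntrk2 followed at 59.8 FPKM and Ntrk3 at 17.7 FPKM. Sorcs2 (11.7 FPKM) and Sorcs3 (11.03 FPKM) overlapped across libraries, as did Sorcs1 (8.02 FPKM) and Bdnf (7.82 FPKM). Every other neighbouring pair in this order had no overlap between the lowest library of the higher gene and the highest library of the lower gene. The gene of the ligand was thus among the lowest in the group. The depth of the libraries was estimated from the FPKM values of genes with a single annotated transcript, at 17.8 to 27.1 M counted fragments with training and 14.3 to 26.2 M without. At that depth even Bdnf was represented by an estimated 100 to 251 fragments per kilobase in each library.

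**Figure D1:**
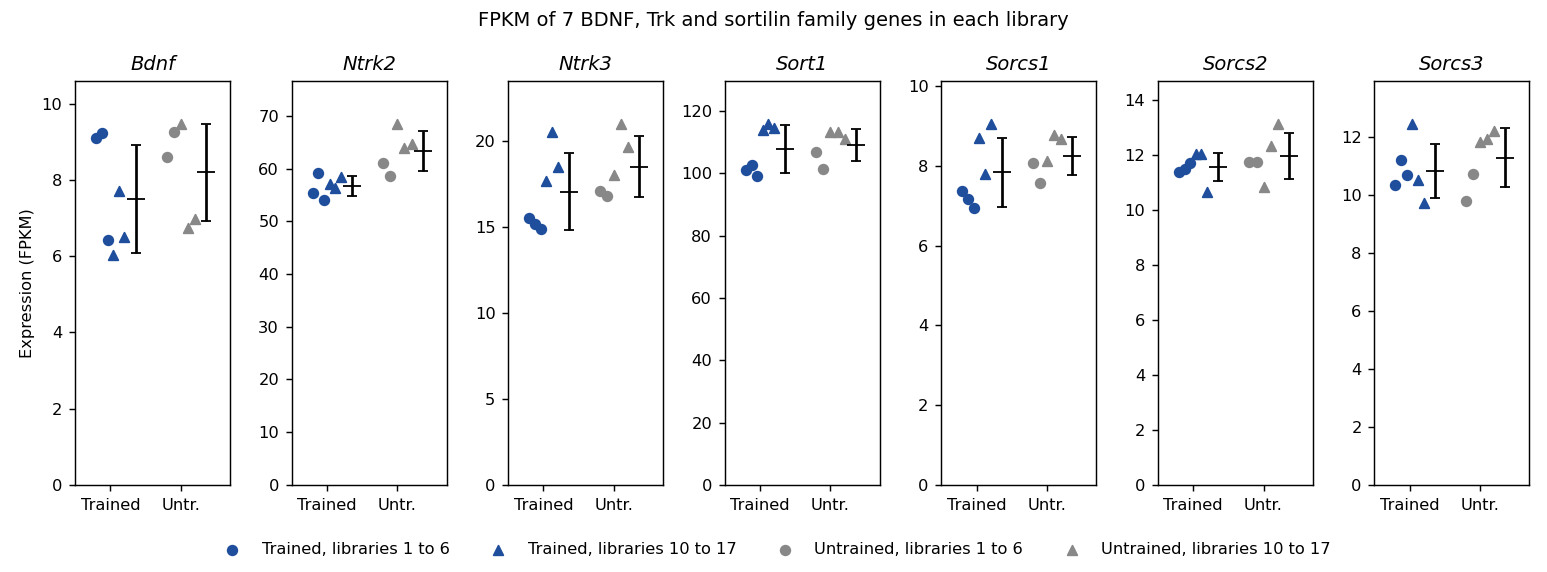
Expression in FPKM (vertical axes, each from 0) of the 7 genes in every library. Blue is trained (6 libraries) and grey is untrained (5 libraries), circles are library numbers 1 to 6 and triangles 10 to 17, and the black bar is the mean with 1 SD. Ntrk2 sits between 54.0 and 59.2 FPKM in trained and between 58.6 and 68.4 FPKM in untrained libraries, while the groups of the other genes overlap more widely.

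Bdnf lies on chromosome 2 (mm10, chr2:109674700-109727007, plus strand), and its 11 complete coding transcripts in GENCODE M21 differ mainly in their first exon. The annotated coding sequences span 249 to 289 codons. In trained mice Bdnf had a lowest value of 6.02, a median of 7.11 and a highest value of 9.24 FPKM. In untrained mice the libraries read 6.97, 8.61, 9.25, 6.74 and 9.46 FPKM. Both groups thus held libraries near 6.5 and libraries above 9, and the ranges overlapped almost entirely. The means were 7.50 ± 1.41 FPKM (SD, n = 6) and 8.21 ± 1.27 FPKM (SD, n = 5). The difference, trained minus untrained, was -0.13 on the log2(FPKM + 0.1) scale (SE 0.132, 95% interval -0.42 to 0.15), with an adjusted p of 0.770 in limma and an exact two-sided permutation p of 0.370. Bdnf also had the widest spread of the group, with a coefficient of variation of 17.1% over all libraries against 5.76% to 11.8% for the other 6. As a ratio the interval ran from 0.748 to 1.11. FPKM sums all starts of the gene, so a shift between the first exons, each driven by its own promoter, was not measured.

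Npas4, an activity-induced transcription factor that binds Bdnf regulatory regions, was higher in trained mice by 1.15 on the log2 scale (95% interval 0.58 to 1.73), with an adjusted p of 0.434 in limma and an exact two-sided permutation p of 0.011. Trained libraries averaged 24.1 ± 6.05 FPKM (SD, n = 6), and untrained ones 11.5 ± 5.79 FPKM (SD, n = 5). Of the 16 tested genes on a list of Bdnf transcription regulators, Npas4 was 1 of 2 with an unadjusted p under 0.05, against 8.34% of all genes tested in either direction. The other was Hdac2, a histone deacetylase, which averaged 33.7 FPKM with training against 37.1 FPKM without. The Hdac2 call ended in 13 of 26 alternatives and stood in 4 of 11 runs that left out a single library, with a difference of -0.14 over all libraries and of -0.09 without Untrained 10. The median of the list was -0.07. In the same libraries all 10 of a list of activity genes (Npas4, Fos, Fosb, Junb, Arc, Egr1, Egr2, Egr4, Nr4a1 and Ier2) were higher with training by the same measure, an unadjusted limma p under 0.05, with differences of 0.40 to 1.28 and a median of 0.99, where 4.13% of all genes tested were called higher. The call for Fosb ended in 5 of 26 alternatives, that for Egr1 in 4, and those for Npas4 and Ier2 in 1 each. Among these, Fosb lost it without Trained 1 (0.35), Untrained 16 (0.32) or Untrained 17 (0.26), and Egr1 without Untrained 16 (0.44) or Untrained 17 (0.39). That list holds genes the study itself picked from these libraries and so is not independent evidence. Bdnf, often grouped with such genes, had a point estimate on the other side of 0.

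**Figure D2:**
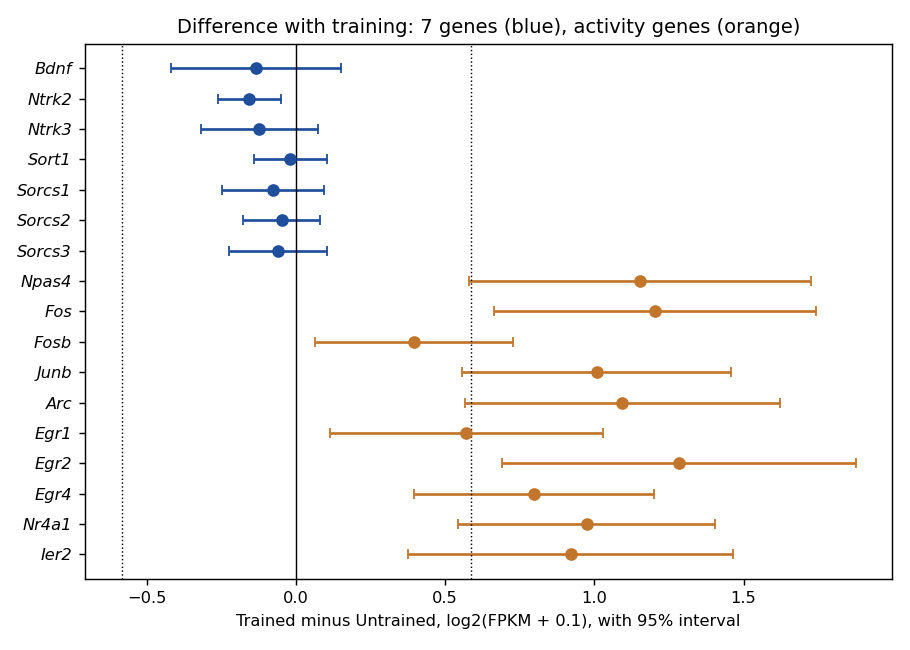
Difference between trained and untrained mice in log2(FPKM + 0.1) (horizontal axis), with the limma estimate as a point and its 95% interval as a bar. The 7 genes are blue and the 10 activity genes are orange, and the dotted lines mark 1.5-fold. The blue points lie between -0.16 and -0.02 and the orange points between 0.40 and 1.28.

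Ntrk2 lies on chromosome 13 (mm10, chr13:58806569-59133970, plus strand). GENCODE M21 lists 7 complete coding transcripts, of which the longest encode 821 codons and the shortest 466. The long form is the kinase-bearing TrkB and the short ones are truncated receptors without a kinase domain, which astrocytes express in abundance. The FPKM value sums them and cannot separate the forms. In trained mice Ntrk2 had a lowest value of 54.0, a median of 56.8 and a highest value of 59.2 FPKM. The untrained libraries read 64.7, 61.1, 58.6, 63.9 and 68.4 FPKM. A single pairing made the groups overlap, since Untrained 6, at 58.6 FPKM, lay below Trained 2, at 59.2 FPKM. Means were 56.8 ± 1.94 FPKM (SD, n = 6) and 63.3 ± 3.73 FPKM (SD, n = 5).

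The Ntrk2 difference was -0.16 on the log2 scale (SE 0.0484, 95% interval -0.26 to -0.05), a ratio of 0.897 with an interval of 0.835 to 0.965. The unadjusted limma p was 0.0064 and the exact two-sided permutation p was 0.0043, where the smallest value the design allows is 0.0022. Over all genes the adjusted p was 0.537, so the difference did not pass correction, and Ntrk2 ranked 173 of 14936 by p. At an unadjusted p under 0.05, 1 of the 7 genes was called lower and none was called higher, against 4.20% of all genes tested called lower. None of the 7 met, in limma, the thresholds that the study applied with edgeR, an unadjusted p under 0.01 together with a change of 1.5-fold. Of all genes tested, 0.281% met them in limma, which is not the study's own yield. The 7 genes were named after results of these data were known, so this count describes them and tests nothing.

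**Figure D3:**
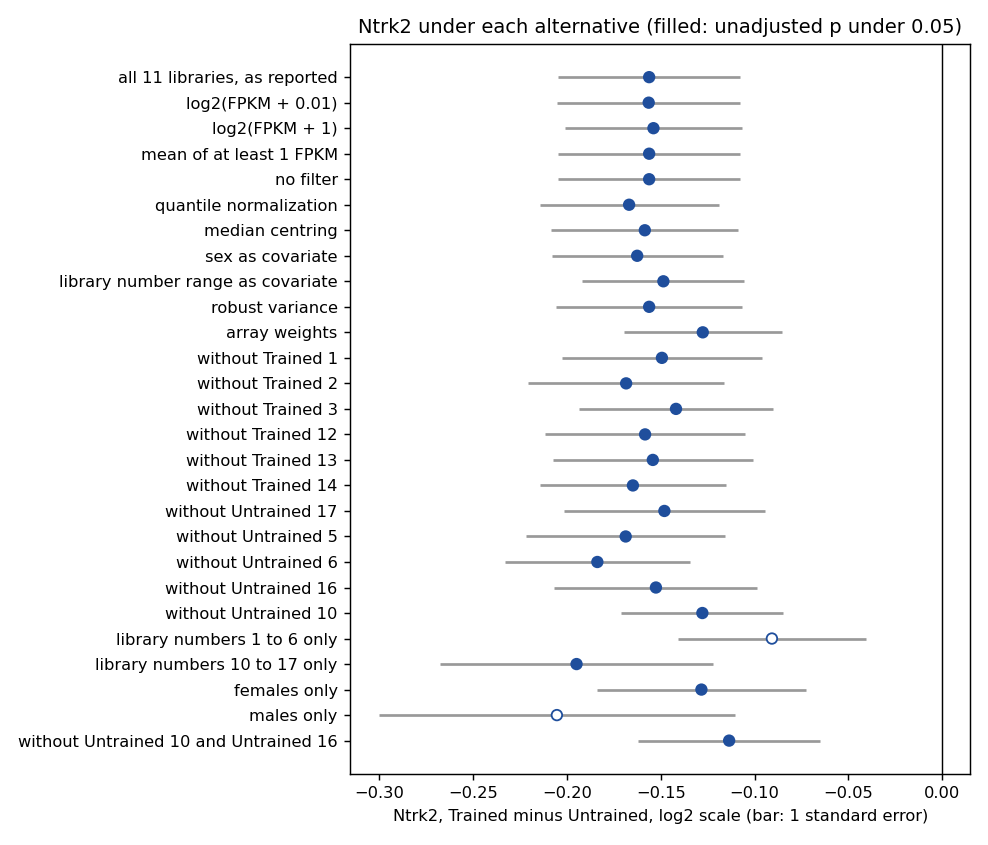
Ntrk2 difference between trained and untrained mice on the log2 scale (horizontal axis) under each way of processing the data (vertical axis), with a bar of 1 standard error. Filled points had an unadjusted p under 0.05, and all points lie between -0.21 and -0.09.

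The lower Ntrk2 level held in sign under all 26 alternatives, with an unadjusted p under 0.05 in 24 of them. The exceptions were the 5 libraries numbered 1 to 6 (-0.09, adjusted p = 0.747 in limma) and the male libraries alone (-0.21, adjusted p = 0.851 in limma). In libraries 10 to 17, trained values of 56.4 to 58.5 FPKM lay below untrained values of 63.9 to 68.4 FPKM, with 3 libraries on each side. These trained libraries were all male, while Untrained 17 was female. Such separation was not particular to Ntrk2. In the same libraries Sort1 separated in the other direction, at 113.8 to 115.7 FPKM in trained and 110.9 to 113.3 FPKM in untrained libraries. Ntrk3, Sorcs1 and Sorcs2 separated in libraries 1 to 6, each lower in trained libraries. The share of all genes that separate in this way was not counted. For Ntrk2 in libraries 1 to 6, the ranges of 54.0 to 59.2 and 58.6 to 61.1 FPKM overlapped. Leaving out both untrained males, of which Untrained 10 carried 2 choroid plexus markers at 167 FPKM in sum, gave -0.11 (adjusted p = 0.901 in limma), an alternative chosen after seeing the data. It left only females in the untrained group against both sexes in the trained group, so training and sex were partly mixed. Astrocyte markers, the other main source of Ntrk2, summed to 773 to 833 FPKM with training and to 791 to 864 FPKM without. Of the 10 astrocyte markers, 4 had higher and 6 lower means in trained mice, and Gja1 (connexin 43) was the one with an unadjusted limma p under 0.05, at -0.20. None was at 0 in any library. Excitatory neuron markers summed to 1663 to 1757 FPKM with training and to 1665 to 1958 FPKM without, with a median difference of -0.08 over 6 genes. Leptomeningeal markers were lower in mean with training for 6 of 6 genes, with a median of -0.34, sums of 14.4 to 29.1 FPKM against 21.9 to 44.5 FPKM and 1 gene (Igf2) at an unadjusted p under 0.05. Their part in the Ntrk2 difference was not tested.

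The genes most like Ntrk2 across the 11 libraries, by Pearson r among the 12807 genes averaging 1 FPKM or more, were Lgi1 (r = 0.97), a secreted synaptic protein, Shisa9 (r = 0.97), an AMPA receptor auxiliary subunit, and Upf2 (r = 0.96), a factor of nonsense-mediated decay. The lowest was Pim3, a serine/threonine kinase (r = -0.96). For Bdnf the 3 highest were Dlx1as (r = 0.96), an RNA antisense to the Dlx1 gene, Ciz1 (r = 0.95), a nuclear zinc finger protein, and Slco1c1 (r = 0.95), a thyroid hormone transporter of the blood-brain barrier, and the lowest was the mismatch repair gene Pms2 (r = -0.89). These were picked from all of those genes over 11 libraries and are given as a description. The within-library ratio of Bdnf to Ntrk2 differed between groups by 0.02 on the log2 scale (exact permutation p = 0.896), and that of Ntrk2 to Ntrk3 by -0.03 (exact permutation p = 0.727).

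Ntrk3 lies on chromosome 7 (mm10, chr7:78175959-78738012, minus strand) and its 4 complete coding transcripts run from 612 codons, a truncated form, to 864. In trained mice it had a lowest value of 14.9, a median of 16.6 and a highest value of 20.5 FPKM. Untrained libraries read 19.6, 17.1, 16.8, 21.0 and 18.0 FPKM. The groups overlapped across most of their range. The difference was -0.12 (95% interval -0.32 to 0.07), with an adjusted p of 0.700 in limma and an exact permutation p of 0.242. Its unadjusted p passed 0.05 with sex as a covariate (-0.15, adjusted p = 0.391 in limma), in females alone (-0.23, adjusted p = 0.502 in limma) and in libraries 1 to 6 alone (-0.16, adjusted p = 0.731 in limma). In males alone the difference was -0.04. The training difference in males minus that in females was 0.18 (interval -0.10 to 0.47) with an adjusted p of 0.959 in limma. None of the 7 genes had an unadjusted interaction p under 0.05, against 4.10% of all genes.

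Sort1 (mm10, chr3:108284082-108361511, plus strand) differed by -0.02 (95% interval -0.14 to 0.10), the smallest difference in the group, at 107.8 ± 7.67 FPKM (SD, n = 6) and 109.1 ± 5.08 FPKM (SD, n = 5). Sorcs1 (mm10, chr19:50143299-50678646, minus strand) differed by -0.08 (interval -0.25 to 0.09). Sorcs2 (mm10, chr5:36017180-36398139, minus strand) differed by -0.05 (interval -0.18 to 0.08) at 11.56 and 11.97 FPKM. Sorcs3 (mm10, chr19:48206025-48805505, plus strand) differed by -0.06 (interval -0.22 to 0.10) at 10.8 and 11.3 FPKM. Adjusted p in limma was 0.777 to 0.941 for these sortilin family genes. The intervals of all 4 exclude a change of 1.5-fold in either direction. Sort1 was on the other side of 0, between 0.0048 and 0.03, in 4 of 26 alternatives, and Sorcs1 (males only, 0.01) and Sorcs3 (numbers 1 to 6, 0.07) in 1 each. Exons of Bdnf, Sort1 and Sorcs1 overlap antisense genes (Gm45346, Gm12523 and Gm45352). The library kit keeps strand, but whether the counting used strand is not stated, so reads from the antisense partner cannot be told apart.

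Only Ntrk3 and Sort1 among the 7 genes differed by library number at an adjusted p under 0.05 in limma. This contrast was added after seeing the data. Libraries 1 to 6 (5 libraries) and 10 to 17 (6 libraries) differed in Ntrk3 by 0.26 (10 to 17 minus 1 to 6, training in the model, 95% interval 0.14 to 0.38), with an adjusted p of 0.0140 in limma. Sort1 differed by 0.15 (interval 0.07 to 0.23), with an adjusted p of 0.0235 in limma. Sort1 was at 99.2 to 106.8 FPKM in libraries 1 to 6 and at 110.9 to 115.7 FPKM in libraries 10 to 17, with no overlap. Ntrk3 was at 14.9 to 17.1 and at 17.7 to 21.0 FPKM, also with no overlap. How many of all genes lack overlap between these ranges was not counted. By an adjusted p under 0.05, Ntrk3 and Sort1 are 2 of the 7 genes, against 9.51% of all genes tested. Sorcs1 differed by 0.19 (adjusted p = 0.0644 in limma) and Bdnf, in the other direction, by -0.25 (adjusted p = 0.179 in limma). Differences were smaller for Sorcs3 (0.11), Ntrk2 (0.08) and Sorcs2 (0.02), with adjusted p of 0.355, 0.275 and 0.871 in limma. All males were in the higher numbers, and all females but Untrained 17 in the lower, so number range and sex largely coincide and cannot be told apart. Grouped by sex in place of number, the differences, male minus female, were 0.23 for Ntrk3 (adjusted p = 0.0866 in limma) and 0.14 for Sort1 (adjusted p = 0.0820 in limma). The sum of 7 oligodendrocyte markers (Mbp, Mog, Mag, Mobp, Cnp, Cldn11 and Ermn) was 390 to 815 FPKM in libraries 1 to 6 and 217 to 353 FPKM in libraries 10 to 17. Other marker lists also shifted in median, 10 to 17 minus 1 to 6 on the log2 scale. Among them were layer 2/3 neurons (0.25), layer 5/6 neurons (-0.24), oligodendrocyte precursors (0.20) and striatal neurons (-0.21). The part of any of these in the Sort1 and Ntrk3 levels was not tested. Across the 11 libraries the pairs among Ntrk3, Sort1 and Sorcs1 had r = 0.76 to 0.86, and the points share these ranges.

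**Figure D4:**
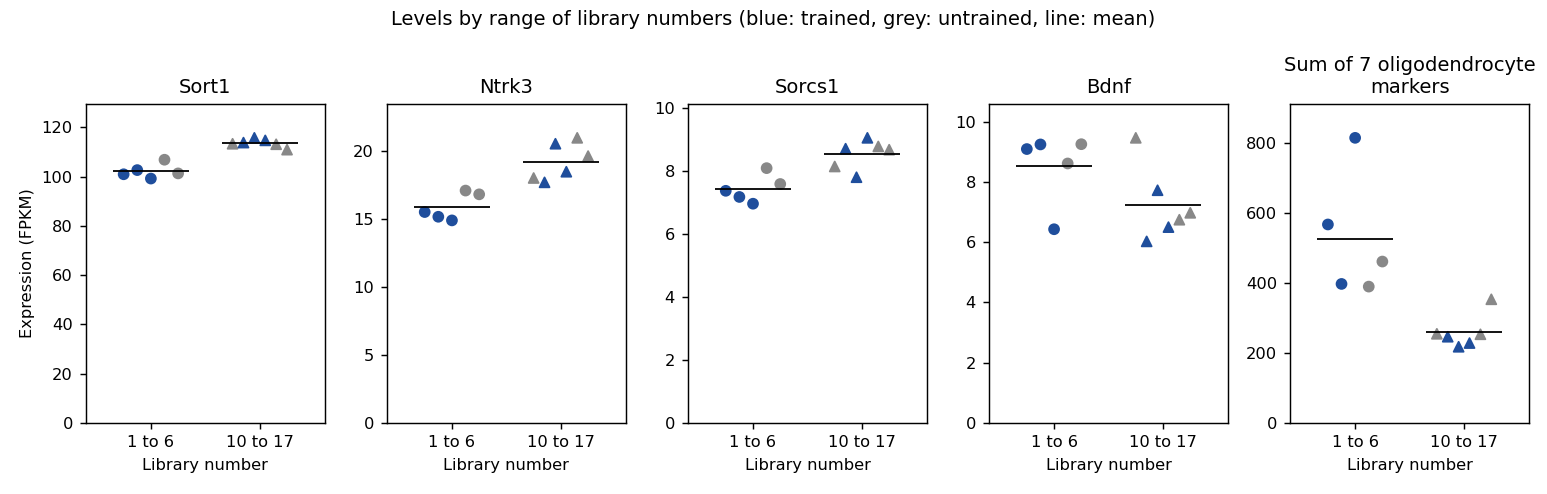
Expression in FPKM (vertical axes from 0) by range of library numbers (horizontal axis) for Sort1, Ntrk3, Sorcs1, Bdnf and the sum of 7 oligodendrocyte markers. Blue is trained, grey is untrained and the line is the mean. Sort1 and Ntrk3 are higher in libraries 10 to 17 in every library, while the marker sum is lower.

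The other genes of the neurotrophin system examined had no member past correction. Ntf3, the ligand of TrkC, averaged 0.734 ± 0.204 FPKM (SD, n = 6) after training against 0.650 ± 0.155 FPKM (SD, n = 5) without it. Ngfr, the p75 receptor that pairs with sortilin to bind proneurotrophins, was at 0.303 and 0.209 FPKM, with an exact two-sided permutation p of 0.0758. Nradd, a death-domain relative of p75, was at 0.870 and 0.954 FPKM, and Sorl1, a sortilin relative, at 58.8 and 59.1 FPKM. Ntf5 was not analysed here. No gene had an unadjusted p under 0.05 among the 12 genes of proneurotrophin processing (median 0.04) or the 10 of vesicle transport and release (median 0.00).

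Downstream of the receptors, 3 of 23 adaptors and effectors had an unadjusted limma p under 0.05 (median -0.01), against 8.34% of all genes tested. Shc2, an adaptor with a phosphotyrosine-binding domain, was higher in trained mice by 0.14 (95% interval 0.03 to 0.25). Shc4, a relative of it, was lower by 0.23 on the log2 scale and Pik3ca, the catalytic subunit of phosphoinositide 3-kinase, by 0.15. Among 15 genes of Trk surface partners and turnover, 2 were lower and none higher (median -0.05), against 4.20% and 4.13% of all genes tested. Counts this small are not read as results about either list. Slitrk5, a TrkB co-receptor that acts in receptor recycling, differed by -0.17 and Nedd4l, a ubiquitin ligase, by -0.20. Adjusted p in limma was 0.562 to 0.597 for these 5 genes. The call ended in 4 of 26 alternatives for Shc2 and for Nedd4l, in 6 for Slitrk5, in 13 for Shc4 and in 16 for Pik3ca. Of the 11 runs without a single library, it stood in 11 for Shc2, 9 for Nedd4l, 8 for Slitrk5, 3 for Shc4 and 2 for Pik3ca, and no sign changed.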

How the data were processed

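RNA was taken from mouse ACC in 6 trained and 5 untrained mice and sequenced as paired reads. The authors used Trimmomatic 0.38 for trimming, Bowtie2 2.3.5.1 for alignment (mm10) and Subread 1.6.3 (featureCounts) for counting, and deposited FPKM values per gene. An untrained male library was left out by the authors for few reads. A table of the authors' own comparison was not used here. The gene annotation and the strand option of the counting are not stated.

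FPKM values are not counts, so log2(FPKM + 0.1) was fitted with limma 3.58.1 (R 4.3.3; mean-variance trend) over the 14936 genes averaging 0.1 FPKM or more, with Benjamini-Hochberg adjustment over all of them. Exact two-sided permutation tests used the 462 arrangements of the libraries. Groups came from the sample titles, with 1 mouse per library by the methods. Depth was estimated as the lowest number of fragments at which the most values of 1 to 40 fragments were whole within 0.1, in genes with 1 annotated transcript. Of such values 57.5% to 61.4% were whole, against a median of 19.5% to 19.9% over all depths tried. Exon-union lengths, tried first, gave no clear depth and were dropped, and the rule for taking the lowest depth was added after a test on simulated data returned a multiple of the true value. Fits were tested on simulated data. Of the table's names 14402 of 14974 were found in GENCODE M21. Some listed genes are not reported here and stayed out of the list sums and counts. Members and lists were chosen with earlier results of these data known. Named genes were all 7 members, list genes with an unadjusted limma p under 0.05, the genes listed as other neurotrophins and receptors, and for Bdnf and Ntrk2 the 3 most and the 1 least correlated genes. Alternatives were the pseudocount, filter, normalization, covariates, variance model, subsets by number range and sex, and leaving out each library. The range and sex contrasts, and leaving out Untrained 10 and Untrained 16, were added after seeing the data.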

Additional observations from a re-analysis of the deposited data

Results flagged for a closer look

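Shc4, an adaptor of the Shc family, was 2.03 FPKM in Trained 14, while the other trained libraries lay between 1.56 and 1.74 FPKM. Its gap to the nearest of them is 0.633 of the range of the group, more than the 95% limit for 6 values. Chance gives about 1 such result in 20 groups, and 54 groups were examined. The reason for this value was not tested.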

How the results depend on the processing

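Ntrk2 kept its sign in all 26 alternatives, and its difference lost its unadjusted p under 0.05 in libraries 1 to 6 only (-0.091) and in males only (-0.21). Leaving out single libraries gave -0.18 to -0.13, with a p under 0.05 in 11 of 11. Ntrk3 passed an unadjusted p of 0.05 with sex as a covariate (-0.15), in libraries 1 to 6 only (-0.16) and in females only (-0.23). The number of genes at an unadjusted p under 0.05 was 617 higher and 628 lower. It was 947 higher and 960 lower with sex as a covariate, 335 lower in males only and 363 lower without Untrained 10 and Untrained 16. Leaving out single libraries moved it between 419 and 1118 higher and between 404 and 1236 lower, the highest of both without Trained 14 (1118 and 1236) and the lowest of the lower count without Untrained 17 (404). The cause was not tested. Bdnf, Sort1, Sorcs1, Sorcs2 and Sorcs3 had no p under 0.05 in any alternative. No gene passed an adjusted p of 0.05 in any of the alternatives run. No paired analysis was possible because the labels do not say which trained and untrained mice were matched. Depth limits the low genes most, such as Ngfr and Ntf3.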
